A study of Homo sapiens with 10 samples.

Results

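The genes described here encode 10 dual-specificity phosphatases that act on mitogen-activated protein kinases (MAPKs): DUSP1, DUSP2, DUSP4, DUSP5, DUSP6, DUSP7, DUSP8, DUSP10, DUSP14 and DUSP16. They were chosen by gene symbol, with earlier results of these data known, and each of the 10 matched 1 of the 57955 genes measured. All 10 were among the 17287 genes that passed a filter on low counts and were tested. mRNA was sequenced from 5 human melanoma cell lines that carry the BRAF V600E mutation, WM983A, WM983B, WM278, WM1617 and WM902B, and from the E+BRes line, resistant to both drugs, that was derived from each of these. The sensitive lines were the original cultures, and the resistant lines had been grown in encorafenib, a BRAF inhibitor, together with binimetinib, a MEK inhibitor, at doses raised in 3 to 5 months from 1 nM to 200 nM, and were then kept in 200 nM of the combination. WM983A, WM278 and WM902B came from primary tumours, and WM983B and WM1617 from metastases. WM983A and WM983B shared a patient, as did WM278 and WM1617, so the 5 lines stood for 3 patients. Each line gave 1 library per state. The 5 lines therefore served as the replicates of each group, and p-values measure the spread between lines, not between cultures of a line.

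Dual-specificity phosphatases of this family switch MAPKs off by removing phosphate from both the threonine and the tyrosine of the activation loop. Several are themselves induced by the kinase that they inactivate, which makes them feedback inhibitors and, in BRAF-mutant melanoma, widely used readouts of ERK signalling. DUSP1, DUSP2, DUSP4 and DUSP5 are inducible nuclear enzymes, DUSP6 and DUSP7 are cytoplasmic and selective for ERK, DUSP8, DUSP10 and DUSP16 act mainly on JNK and p38, and DUSP14 is a small atypical member.

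The libraries held 13970608 to 16966008 counts in the sensitive lines and 13693922 to 18033247 in the resistant lines. A level of 3 counts, taken as the smallest detectable, corresponded to 0.166 to 0.219 CPM (counts per library scaled to the same total), which covers counting error only. Levels are given as normalized counts, which are expected counts scaled to a common library size, and as TPM, which also corrects for transcript length, where genes are compared with each other. Melanocyte lineage markers (8 genes) summed to 6525 to 68430 normalized counts in the sensitive libraries and 1365 to 67330 in the resistant ones, with medians of 44160 and 3541. SOX10 was at 4664 to 5229 in the sensitive libraries but at 98.4 in resistant WM983A, 191.9 in resistant WM983B and 10.1 in resistant WM902B. These 3 resistant libraries thus went against this marker of their labelled cell type. Not all markers followed SOX10. In resistant WM902B MITF stayed at 3348 (6114 in its parent), while MLANA, PMEL, TYR, DCT and S100B were far lower. Sensitive WM278, with SOX10 at 4845, had MITF at 163.3, MLANA at 11.5, PMEL at 67.2, TYR at 8.58 and DCT at 14.3, with S100B at 1411. Fibroblast markers (9 genes) summed to 206.5 to 1357 and 143.2 to 25920, keratinocyte markers (4 genes) to 317.0 to 874.4 and 269.8 to 1322, and immune markers (4 genes) to 114.3 to 1192 and 70.3 to 1009. Nearly all of the keratinocyte sum was KRT10 (256.4 to 1309 over all libraries), and nearly all of the immune sum was CD68 (70.3 to 1187). In resistant WM902B COL1A1 at 18770 and PDGFRB at 4600 made up most of the fibroblast sum of 25920. KRT1 was at 0 in every library and the pan-leukocyte gene PTPRC at no more than 5.42. The part of these marker changes in the results below was not tested.

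DUSP1 was higher and DUSP4 lower in the resistant libraries of all 5 lines, and DUSP2, DUSP6 and DUSP10 were also lower in each. The size of these differences varied widely by line and was smallest for DUSP1, DUSP2, DUSP4 and DUSP6 in WM1617. Some were too small to count as a difference on 1 library per state. DUSP1 was 1.05-fold higher in WM1617, where 40.5% of all genes tested had a ratio at least as high. DUSP10 was 1.06-fold lower in WM902B, where 45.4% had a ratio at or below it, and 1.16-fold lower in WM1617. A gene was called where edgeR's quasi-likelihood test of 5 resistant against 5 sensitive libraries gave an unadjusted p of at most 0.05 and the levels differed at least 2-fold. By this rule 2 of the 10 members were called higher, DUSP1 and DUSP8, against 3.53% of all genes tested, and 1 was called lower, DUSP4, against 0.885%. With cell line as a block, which compares each resistant line with its own parent, 2 members were called higher (DUSP1 and DUSP8), against 3.48% of all genes, and 3 lower (DUSP2, DUSP4 and DUSP6), against 2.05%. After Benjamini-Hochberg adjustment over all 17287 genes no member was called in either edgeR fit, and the share of all genes called was 0.0% in both, with smallest adjusted p-values of 0.630 and 0.461. Without adjustment and whatever their fold change, 1235 genes had a p of at most 0.05 in the first fit and 1847 in the second. With adjustment and the same 2-fold rule, DESeq2's Wald test called 1 member (DUSP1), against 106 of all 17287 genes tested. With the line block it called 3 members (DUSP1, DUSP4 and DUSP6), against 507 of the 17287. The median log2 fold change of the 10 members was -0.32, against 0.03 over all genes tested. In these bulk libraries fewer cells expressing a gene and less RNA per cell cannot be told apart. Only the resistant lines were kept in the drugs. Acquired resistance and the presence of the drugs therefore cannot be told apart in any of these differences.

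**Figure D1:**
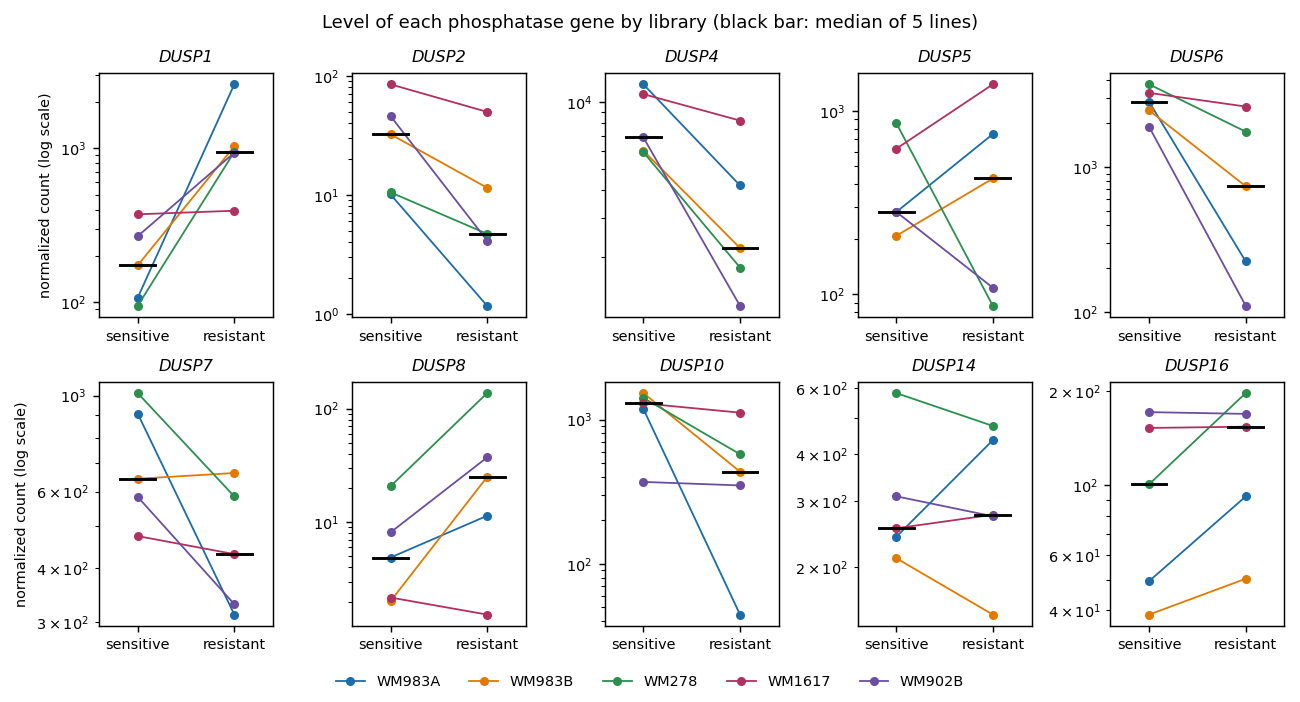
Normalized count of each of the 10 phosphatase genes on a log axis, in the sensitive and the resistant library of each line (coloured points joined by a line), with black bars at the median of 5 lines and a separate scale in each panel. The DUSP1 points run from 94.5 to 372.4 in the sensitive libraries and from 392.7 to 2612 in the resistant ones, and the DUSP6 points spread from 110.2 to 2608 in the resistant libraries against 1891 to 3714 in the sensitive ones.

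DUSP1 is an immediate early gene whose nuclear product inactivates p38, JNK and ERK. Among the sensitive libraries WM983A had 106.5 normalized counts, WM983B 173.1, WM278 94.5, WM1617 372.4 and WM902B 267.9. The resistant libraries had 2612, 1031, 949.0, 392.7 and 937.7 in the same order. No resistant library was below any sensitive one, although resistant WM1617 was only just above sensitive WM1617. Groups that did not overlap with resistant higher were found for 0.44% of all genes tested, and with resistant lower for 0.318%. DUSP1 was the only member whose groups did not overlap. Within lines DUSP1 was 24.3-fold higher in resistant WM983A, 9.95-fold in WM278, 5.93-fold in WM983B, 3.49-fold in WM902B and 1.05-fold in WM1617. In WM278 0.839% of all genes tested had a ratio at least as high, and in WM983A 1.30% had. The log2 fold change in edgeR's test was 2.54 (SE 0.55, n = 5 and 5, adjusted p = 0.630), and with the line block it was 2.50 (SE 0.66, adjusted p = 0.461). The unadjusted p-values were p = 0.000820 without and p = 0.00744 with the block, and the exact permutation test of the mean log2 level, two-sided over every division of the libraries into 5 and 5, gave p = 0.00794, the smallest that it can give. Here and below, that test took no account of the pairing of lines or of shared patients. The fits without the block took no account of either, and the line block covers the pairing but not the shared patients. Without WM983A the log2 fold change was 1.86, a 3.64-fold difference instead of 5.84-fold. Over the other settings tried the adjusted p of DUSP1 ran from 0.130 to 0.999 in edgeR, and it was 0.00339 in DESeq2 and 0.00187 in DESeq2 with the block.

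The bases before the start sites of DUSP1 and DUSP8, the 2 members called higher in both fits, are shown because both hold the 8 letters of the cyclic AMP response element. Those of DUSP6 are shown as an example without any of the motifs searched. DUSP7, DUSP10, DUSP14 and DUSP16 held none of the motifs either. RefSeq's table of promoters (GRCh38.p14) held 8 of the 10 members. The sequences are the 250 bases upstream of the annotated start on the minus strand, at chr5:172771196-172771445 for DUSP1, chr11:1572272-1572521 for DUSP8 and chr12:89352502-89352751 for DUSP6, printed 5′ to 3′ along the gene. Capitals mark the matches to TGACGTCA (the cyclic AMP response element), CACGTG (the E-box) and TATAAA (the TATA box).
DUSP1: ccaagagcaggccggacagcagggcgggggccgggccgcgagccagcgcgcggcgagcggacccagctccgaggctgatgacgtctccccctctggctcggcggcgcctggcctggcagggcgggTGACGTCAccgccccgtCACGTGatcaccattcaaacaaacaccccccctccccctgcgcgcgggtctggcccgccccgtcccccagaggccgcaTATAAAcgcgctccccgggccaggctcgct
DUSP8: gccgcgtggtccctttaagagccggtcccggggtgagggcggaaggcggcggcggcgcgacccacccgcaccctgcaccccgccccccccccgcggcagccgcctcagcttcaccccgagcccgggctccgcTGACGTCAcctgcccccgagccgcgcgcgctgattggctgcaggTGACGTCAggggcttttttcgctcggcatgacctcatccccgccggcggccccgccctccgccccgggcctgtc
DUSP6: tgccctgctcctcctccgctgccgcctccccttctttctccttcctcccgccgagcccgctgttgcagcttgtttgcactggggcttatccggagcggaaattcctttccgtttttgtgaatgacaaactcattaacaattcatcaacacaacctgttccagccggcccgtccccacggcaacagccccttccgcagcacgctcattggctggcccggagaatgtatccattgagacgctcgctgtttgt
On both strands TGACGTCA was found at -125 in DUSP1 and at -118 and -74 in DUSP8, counted from the start site to the first base of the match, and in 1.77% of the 27305 promoters in the table. No other member with an entry held it. CACGTG stood at -108 in DUSP1 and at -113 in DUSP2, against 6.49% of all promoters, and TATAAA at -30 in DUSP1 only, against 11.1%. TGANTCA (the AP-1 site, in 6.60% of promoters), CCGGAA (an ETS core, in 14.8%) and the serum response CArG box (in 1.14%) were in none of the 8 windows. Of these patterns none overlaps another in the 3 sequences. A match describes letters and not a bound site.

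Of the other inducible nuclear phosphatases, DUSP4 and DUSP2 were lower in the resistant library of every line, and DUSP5 went in different directions. DUSP4, which inactivates ERK and JNK in the nucleus, was at 12000 normalized counts in sensitive WM983A, and the sensitive WM983B, WM278, WM1617 and WM902B libraries had 6027, 5934, 10840 and 6914. In the order of the lines above, the resistant libraries had 4201, 2194, 1792, 8235 and 1204. Only resistant WM1617 reached into the range of the sensitive libraries, so the groups overlapped. DUSP4 was lower by 5.74-fold in WM902B, 3.31-fold in WM278, 2.86-fold in WM983A, 2.75-fold in WM983B and 1.32-fold in WM1617. The log2 fold change was -1.24 (SE 0.51, n = 5 and 5, adjusted p = 0.685 in edgeR), and -1.53 with the line block (SE 0.32, adjusted p = 0.461). Unadjusted, edgeR gave p = 0.0325 without and p = 0.00207 with the block, and the exact permutation test gave p = 0.0318. In the fits without the block, leaving out WM983A, WM983B, WM278 or WM902B ended the call (p from 0.0680 to 0.0905), whereas with the block it was made whichever line was left out (p from 0.000717 to 0.00904). DUSP4 lies at chr8:29333064-29350684 (GRCh38, minus strand).

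DUSP2, known mostly from immune cells, was low, and near the floor of 3 counts in resistant WM983A, WM278 and WM902B. Its normalized counts were 10.1, 32.2, 10.5, 84.7 and 45.9 in sensitive WM983A, WM983B, WM278, WM1617 and WM902B and 1.17, 11.5, 4.70, 49.7 and 4.12 in the resistant libraries. Every line had a lower value in the resistant state, but lines differed from each other more than the states did, and the groups overlapped. In WM983A the ratio rested on 1 count against 10, which made it 8.56-fold lower in the resistant library with a 95% counting interval of 1.22 to 372. Without the block the log2 fold change was -1.34 (SE 0.92, adjusted p = 0.802 in edgeR), and with the block it was -1.77 (SE 0.49, adjusted p = 0.461). The unadjusted values were p = 0.175 without and p = 0.00869 with the block, and the exact permutation test, which takes no account of the lines, gave p = 0.111.

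DUSP5, a nuclear phosphatase selective for ERK, was at 281.1, 208.5, 861.2, 622.8 and 281.8 in the sensitive libraries of WM983A, WM983B, WM278, WM1617 and WM902B. In the resistant libraries it was at 749.3, 428.7, 86.5, 1400 and 108.6. The gene was thus at least 2-fold higher in 3 resistant lines and at least 2-fold lower in the other two, WM278 (9.85-fold) and WM902B (2.58-fold). In WM278 0.405% of all genes tested had a ratio at or below that of DUSP5. It was the only member at least 2-fold different in WM1617 (2.25-fold higher), where DUSP1, DUSP4 and DUSP6 differed by less than 1.4-fold. In edgeR's test the log2 fold change was 0.30 (SE 0.73, adjusted p = 0.961) and -0.06 with the block (SE 0.80, adjusted p = 0.983), and the exact permutation p was 0.810. Reads that DUSP5 shares with the pseudogene DUSP5P1, which held up to 20.4 counts, may have been split between them.

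DUSP6 and DUSP7 are the ERK-selective phosphatases of the cytoplasm. DUSP6, at chr12:89347235-89352501 (GRCh38, minus strand), was at 2812 in sensitive WM983A and at 2456, 3714, 3241 and 1891 in sensitive WM983B, WM278, WM1617 and WM902B. The resistant libraries were at 222.9, 735.8, 1751, 2608 and 110.2. All 5 were lower than their sensitive parent, and resistant WM1617 alone lay within the sensitive range. The fold by which DUSP6 was lower went from 1.24 in WM1617 through 2.12 in WM278 and 3.34 in WM983B to 12.6 in WM983A and 17.0 in WM902B. The SD of its log2 level was 0.38 over the sensitive lines and 1.93 over the resistant ones. In edgeR's test the log2 fold change was -1.38 without the block (SE 0.72, adjusted p = 0.732) and -2.15 with it (SE 0.64, adjusted p = 0.461). Unadjusted, these had p = 0.0820 and p = 0.0128, so that DUSP6 was called only with the lines paired, and the exact permutation test gave p = 0.0238. A long noncoding RNA, ENSG00000274021, overlaps DUSP6 by 1487 bases on the opposite strand and held up to 533.0 counts. Whether counting used the strand is not given in the sources used here, so reads of the overlap cannot be assigned to either gene.

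DUSP7 differed less. Its levels were 909.4, 642.6, 1014, 473.6 and 583.7 in the sensitive libraries of WM983A, WM983B, WM278, WM1617 and WM902B and 311.8, 662.5, 584.9, 430.2 and 329.5 in the resistant ones. It was 2.91-fold lower in WM983A, under 2-fold lower in WM278, WM902B and WM1617, and 1.03-fold higher in WM983B. In edgeR the log2 fold change was -0.64 (SE 0.30, adjusted p = 0.704) and -0.65 with the block (SE 0.27, adjusted p = 0.467), in both fits less than a 2-fold change. The unadjusted values were p = 0.0543 without and p = 0.0464 with the block, beside an exact permutation p = 0.0794.

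Among the phosphatases that act mainly on JNK and p38, DUSP8 was higher and DUSP10 lower in most resistant lines. DUSP8, at chr11:1554051-1572271 (GRCh38, minus strand), was low throughout. The sensitive libraries of WM983A, WM983B, WM278, WM1617 and WM902B had 4.88, 2.02, 20.7, 2.17 and 8.13 normalized counts, and the resistant ones 11.4, 25.1, 137.3, 1.54 and 37.3. In 4 lines the resistant library was higher, while both WM1617 libraries were at or under the floor of 3 counts and gave no usable ratio. In WM983B 26 counts stood against 2, a ratio of 12.3 with a 95% counting interval of 3.08 to 107. The log2 fold change was 2.45 (SE 1.01, n = 5 and 5, adjusted p = 0.685 in edgeR) and 2.10 with the block (SE 0.52, adjusted p = 0.461). Unadjusted, edgeR gave p = 0.0350 without and p = 0.00541 with the block, but the exact permutation test gave p = 0.143. Without WM983A, WM983B or WM902B the call was lost in the fit without the block (p from 0.0609 to 0.0805) and was made in the fit with it (p from 0.00617 to 0.0222), and with WM278 left out too few counts remained for the gene to be tested. The pseudogene DUSP8P5 held up to 38.4 counts, and how reads shared with it were assigned is not given in the sources used here.

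DUSP10 had 1185, 1526, 1413, 1294 and 369.2 normalized counts in sensitive WM983A, WM983B, WM278, WM1617 and WM902B. Sensitive WM902B stood well below the other 4. The resistant libraries had 44.4, 434.7, 574.7, 1116 and 349.1. Resistant WM983A had the lowest level of the 10 libraries, 26.1-fold under its parent, and WM983B and WM278 were 3.51-fold and 2.46-fold lower, whereas WM1617 and WM902B differed by 1.16-fold and 1.06-fold. The log2 fold change was -1.20 (SE 0.65, adjusted p = 0.742 in edgeR) and -1.47 with the block (SE 0.69, adjusted p = 0.485). Unadjusted, edgeR gave p = 0.0952 and p = 0.0708, and the exact permutation test gave p = 0.0794, so DUSP10 was not called. Without WM902B the exact permutation p was 0.0286, the smallest for 4 against 4. Without WM983A the difference in mean log2 level was -0.85 instead of -1.62 (exact permutation p = 0.229), and the log2 fold change with the block was -0.85.

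DUSP16 and the atypical DUSP14 differed by less than 2-fold in every line. DUSP16 was at 49.4, 38.6, 100.8, 152.5 and 171.3 in the sensitive libraries and 92.2, 50.3, 197.1, 153.9 and 169.1 in the resistant ones, in the order WM983A, WM983B, WM278, WM1617 and WM902B. Its log2 fold change in edgeR was 0.37 (SE 0.51, adjusted p = 0.916), with an exact permutation p of 0.405. DUSP14 was at 241.1, 211.6, 581.6, 254.1 and 309.1 in the sensitive libraries and 435.9, 149.8, 475.5, 276.1 and 273.5 in the resistant ones. Its log2 fold change was 0.01 (SE 0.38, adjusted p = 0.998 in edgeR), with 2 lines higher and 3 lower, and an exact permutation p of 1.0.

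**Figure D2:**
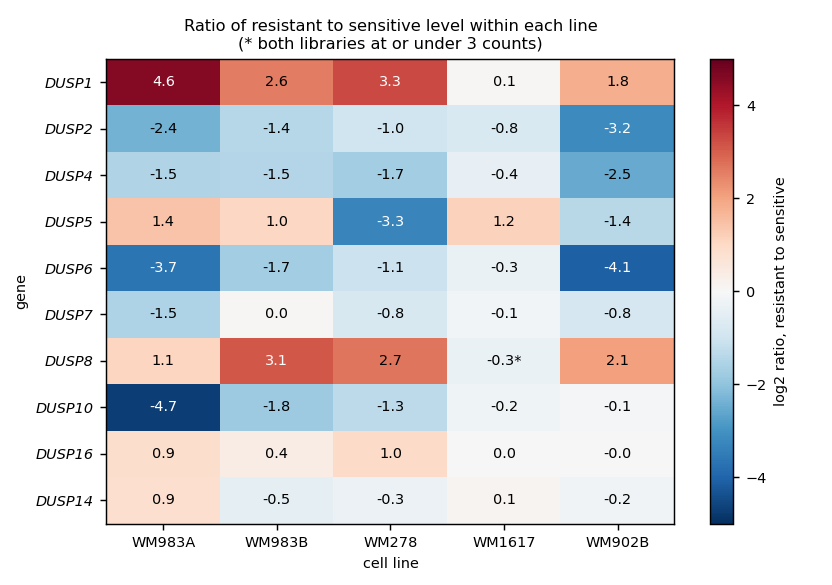
Log2 of the resistant over the sensitive normalized count (1 added to both) for each phosphatase gene (rows, by role) and line (columns), red where the resistant library was higher and blue where it was lower. The WM1617 column is the palest, with ratios from -0.76 to 1.17, while WM983A runs from -4.71 for DUSP10 to 4.60 for DUSP1.

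Line by line, 29 of the 49 usable ratios were at least 2-fold. In WM983A 3 of 10 members were at least 2-fold higher (DUSP1, DUSP5 and DUSP8), against 16.9% of all genes tested, and 5 lower (DUSP2, DUSP4, DUSP6, DUSP7 and DUSP10), against 19.4%. In WM983B the same 3 were higher, against 16.2%, and 4 lower (DUSP2, DUSP4, DUSP6 and DUSP10), against 11.2%. WM278 had 2 members higher (DUSP1 and DUSP8), against 12.0%, and 5 lower (DUSP2, DUSP4, DUSP5, DUSP6 and DUSP10), against 7.02%. WM902B had 2 higher (DUSP1 and DUSP8), against 15.4%, and 4 lower (DUSP2, DUSP4, DUSP5 and DUSP6), against 12.0%. WM1617 had 1 of 9 members higher (DUSP5), against 2.83%, and 0 lower, against 3.79%. The median size of the log2 ratio over the members was 0.21 in WM1617 and 1.19 to 1.59 in the other 4 lines. These ratios each rest on 1 library per state and carry no test.

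Per length, DUSP4 and DUSP6 were the most abundant of the 10 transcripts in the sensitive lines and DUSP1 in most resistant ones. In the sensitive libraries the median level was 206.2 TPM for DUSP4 (range 181.4 to 397.4), 175.5 for DUSP6 (106.3 to 213.9) and 101.0 for DUSP10 (28.3 to 127.1). DUSP5 (26.7), DUSP7 (26.7), DUSP14 (23.8) and DUSP1 (20.2) followed, then DUSP2 (3.93), DUSP16 (3.14) and DUSP8 (0.237). Neighbours in this order overlapped in range except DUSP1 and DUSP2, and DUSP16 and DUSP8. In the resistant libraries DUSP1 came first with a median of 109.9 TPM (42.4 to 240.9), followed by DUSP4 at 78.6 (36.7 to 246.2), DUSP6 at 49.7 (6.33 to 147.0), DUSP5 at 44.1, DUSP10 at 40.1, DUSP14 at 24.9, DUSP7 at 16.5, DUSP16 at 4.69, DUSP8 at 1.32 and DUSP2 at 0.568. Here only DUSP7 and DUSP16 were neighbours whose ranges did not overlap.

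The summed level of the 10 genes was lower in the resistant library of each line. In TPM, WM983A went from 779.0 to 463.0, WM983B from 563.9 to 397.1, WM278 from 690.4 to 411.6, WM1617 from 757.2 to 693.0 and WM902B from 454.4 to 228.3. DUSP4 and DUSP6 together made up 57.3% to 73.6% of this sum in the sensitive libraries. Among the resistant ones WM983A kept 25.5%, WM983B 32.3%, WM278 39.7%, WM1617 56.7% and WM902B 18.9%. DUSP1 took 1.51% to 6.35% in the sensitive libraries and 52.0%, 33.6%, 26.7%, 6.12% and 45.2% in the resistant ones. It was the most abundant member in 4 of 5 resistant libraries, and in WM1617 DUSP4 remained so. The log2 ratio of DUSP1 to DUSP6 counts went from -4.72 to 3.55 in WM983A, from -2.82 to 3.09 in WM902B, from -3.83 to 0.49 in WM983B, from -5.30 to -0.88 in WM278 and from -3.12 to -2.73 in WM1617.

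**Figure D3:**
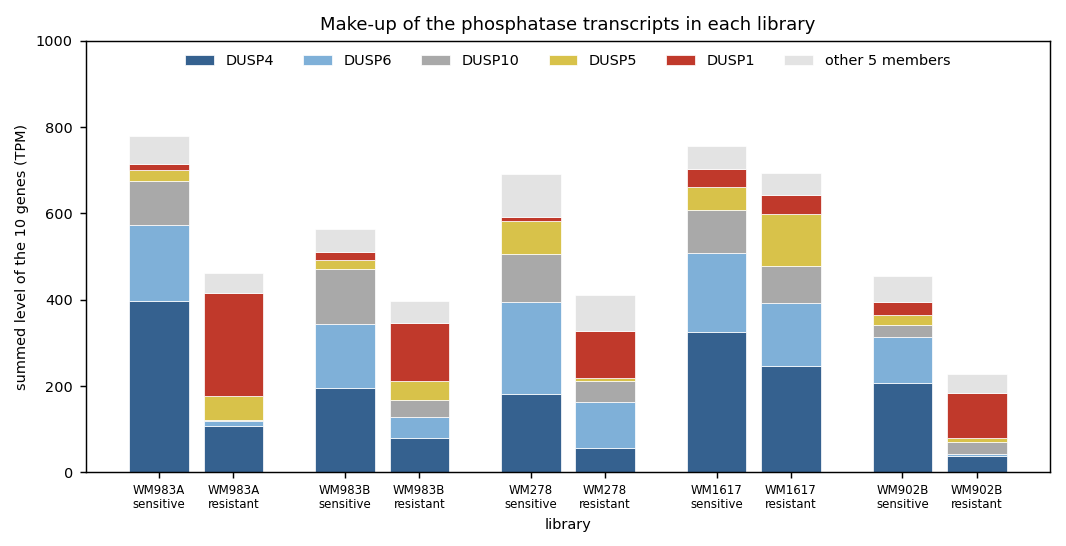
Summed level of the 10 phosphatase genes in TPM (bars from 0), split by gene, in the sensitive and the resistant library of each line. DUSP1 (red) takes 26.7% to 52.0% of the bar in 4 resistant libraries and 6.12% in resistant WM1617, and no more than 6.35% in any sensitive library.

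Other genes of the pathway were read from the same fit, in which 3.53% of all genes tested were called higher and 0.885% lower. With the line block these shares were 3.48% and 2.05%. All lists here and below were chosen with earlier results of these data known. Their counts beside these shares are therefore a description and not an independent test. Of 13 other dual-specificity phosphatase genes 10 were tested and 0 called, with a median log2 fold change of 0.07 against 0.03 over all genes. Of 10 MAP kinase genes 9 were tested and only MAPK13, a p38 isoform at no more than 11.4 normalized counts in the sensitive libraries, was called higher (log2 fold change 3.48, SE 1.16, adjusted p = 0.630 in edgeR), and 0 were called with the line block. Its unadjusted p was p = 0.0123 and its exact permutation p = 0.151. The median of the 9 was 0.15. Of 10 MAP kinase kinase and RAF genes 0 were called, with a median of 0.21. BRAF, singled out after its values were seen, was at 447.8 to 701.6 normalized counts in the sensitive libraries and at 5414 in resistant WM1617. This was a log2 ratio of 3.12 within that line, on 1 library per state. DUSP1, DUSP4 and DUSP6 differed least in the same line, and a link was not tested. Over all lines BRAF was not called (unadjusted edgeR p = 0.0728 without and p = 0.401 with the block, exact permutation p = 0.587).

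The listed ERK output genes, which leave out members and the immediate early genes described below, were mostly lower, as DUSP4 and DUSP6 were. Of 14 such genes 13 had a negative log2 fold change, with a median of -0.85 against 0.03 over all genes. Called lower was 1, against 0.885% of all genes: SPRED1, an inhibitor of RAS signalling to RAF (-1.16, SE 0.46, adjusted p = 0.675 in edgeR, exact permutation p = 0.0476). With the line block 5 were called lower, against 2.05% of all genes: SPRED1, the sprouty feedback inhibitor SPRY2 and the ETS factors ETV1, ETV4 and ETV5. The median was then -0.95, with 12 genes negative and 2 positive. By line the list median was -2.11 in WM902B, -1.33 in WM278, -1.15 in WM983A, -0.27 in WM983B and 0.15 in WM1617. The genes higher in the resistant library numbered 2 of 14 in WM902B, 0 in WM278, 5 in WM983A, 4 in WM983B and 9 in WM1617. WM1617, where DUSP6 and DUSP4 differed least, was the only line with a positive median.

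Immediate early genes were mostly higher, as DUSP1 was. The 14 in the list had a median log2 fold change of 1.56 against 0.03 over all genes. Of these 7 were called higher, against 3.53% of all genes tested, and 1 lower, against 0.885%. As the list was chosen with earlier results of these data known, this is not an independent test. Those with the smallest p were the AP-1 subunit genes JUNB (1.75, SE 0.42) and FOS (2.42, SE 0.61), the mRNA decay factor gene ZFP36 (2.45, SE 0.65) and the stress-induced ATF3 (1.70, SE 0.54), each with adjusted p = 0.630 in edgeR. Their exact permutation p-values were 0.0397, 0.00794, 0.0397 and 0.0556. NR4A1, an orphan nuclear receptor gene singled out after its values were seen, was the 1 called lower (-1.51, SE 0.59, adjusted p = 0.669 in edgeR, exact permutation p = 0.0794). With the line block 7 were again called higher, against 3.48% of all genes, and 1 lower, against 2.05%. JUN was called in place of EGR1, and the median was 1.13. The list median was 2.01 in WM983B, 1.70 in WM983A, 1.07 in WM278, 0.79 in WM902B and -0.16 in WM1617. In both lists WM1617 had the median nearest to 0.

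**Figure D4:**
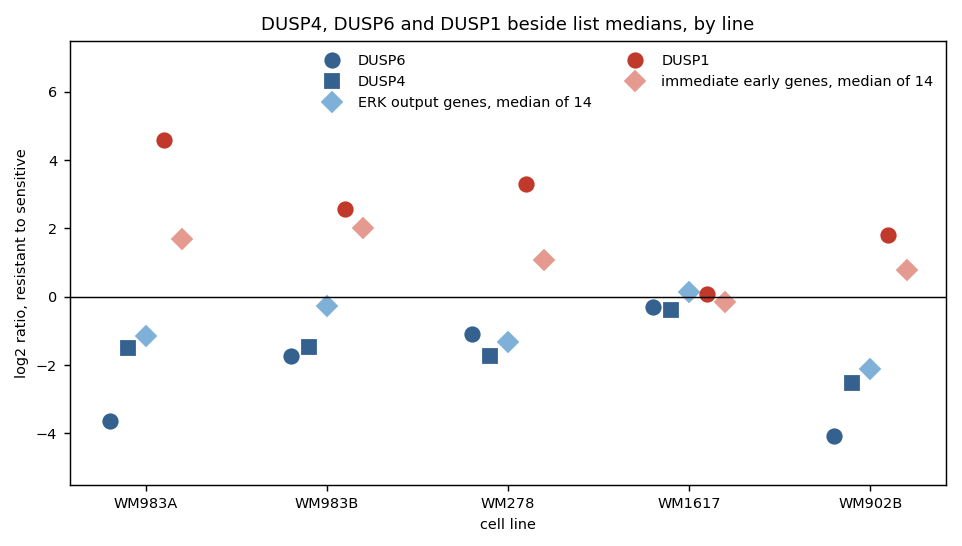
Log2 ratio of resistant over sensitive in each line for DUSP6 and DUSP4 (dark blue), DUSP1 (red) and the medians of 14 ERK output genes (light blue) and 14 immediate early genes (pink), shifted sideways so that points do not hide each other. The blue points lie below 0 and the red and pink points above it in WM983A, WM983B, WM278 and WM902B, while all 5 points of WM1617 lie between -0.40 and 0.15.

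The genes whose levels ran most like those of DUSP1, DUSP4 and DUSP6 were found by the root mean square (RMS) difference of log2 levels, each gene centred on its own mean, over the 10 libraries. For DUSP1 they were LHPP (RMS 0.63), CCDC180 (0.64) and FOS (0.65), against a median of 1.59 over all genes tested. For DUSP4 they were RP11-973D8.4 (0.36), LDLRAD3 (0.39) and ENTPD6 (0.45), against 1.23. For DUSP6 they were ENSG00000274021 (0.43), the RNA that overlaps it, SPRY2 (0.48) and FAM189A2 (0.51), against 1.77. Reads of the overlap cannot be assigned to DUSP6 or to ENSG00000274021, and the part of shared reads in their likeness was not tested. The log2 ratio of SPRY2 was -3.75 in WM902B, -2.01 in WM983A, -1.10 in WM983B, -0.75 in WM278 and 0.29 in WM1617. FOS is also 1 of the 14 immediate early genes and SPRY2 1 of the 14 ERK output genes.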

How the data were processed

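Poly(A) RNA of the 10 lines was sequenced from 1 end in 75 cycles. HISAT2 was used by the authors for alignment to GRCh38, and StrandNGS for the values per gene. The annotation, the strand setting and the handling of shared reads are not given in the sources used here. The deposited raw values are expected counts, of which 24.1% of those above 0 are whole. The deposited normalized values are log2 ratios of the resistant over the sensitive library in each line, and they were used only to recover 455 expected counts that had been turned into dates in sensitive WM983B (none of a member).

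Expected counts were rounded to whole numbers, filtered with filterByExpr, scaled by TMM and tested two-sided with glmQLFit and glmQLFTest in edgeR 4.0.16 (R 4.3.3), 5 resistant against 5 sensitive libraries, with no term for line. Whether lines were paired in the study's own test is not given in the sources used here. Adjustment was by Benjamini-Hochberg over 17287 genes. DESeq2 1.42.0 and the fit with line as a replicate block were alternatives, and DESeq2 with the block, the block without each line, and a fit that left out the 455 recovered genes were chosen after seeing the data. The lines are paired because each resistant line descends from its parent. The correlation of both libraries of a line, after removal of group means, was 0.675 in WM278, 0.670 in WM1617, 0.540 in WM983B, 0.380 in WM902B and -0.064 in WM983A, against -0.510 to 0.374 between lines. Exact permutation tests used log2(normalized count + 1) and divided the libraries without regard to line. Within-line ratios also had 1 added. TPM was computed from the expected counts with exon lengths of GENCODE release 44, the source of the gene positions, for 56911 genes. The edgeR and DESeq2 fits were tested on simulated data.

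The 10 members and the lists were chosen with earlier results of these data known. All members are named. List genes are named where they pass the unadjusted rule, the 4 with the smallest p where more pass. BRAF, NR4A1, JUN, EGR1 and the ERK output genes called only with the block fall outside this rule and were chosen after their values were seen. The 3 genes nearest to DUSP1, DUSP4 and DUSP6 are named.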

Additional observations from a re-analysis of the deposited data

Results flagged for a closer look

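Of 20 sets of 5 libraries (10 members in 2 states), 1 had a library far from the others. DUSP10 in sensitive WM902B was at 369.2 normalized counts against 1185 to 1526 in the other 4 sensitive libraries, and its gap to the nearest of them was 0.822 of the whole range on the log2 scale, above Dixon's critical value of 0.71 for 5 samples. Chance flags about 1 in 20 such sets. Without WM902B the difference in mean log2 level of DUSP10 was -2.01 instead of -1.62, and without WM983A it was -0.85.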

How the results depend on the processing

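Most values kept their direction and their side of the threshold. For the exceptions below the cause was not tested except where fewer lines were fitted. The 764 genes called became 2258 with no filter on low counts, 1493 in DESeq2 with the block and 420 to 1693 when a line was left out, lowest without WM902B and highest without WM1617. With adjustment, the 0 genes became 106 in DESeq2 and 507 in DESeq2 with the block. The 3 members called became 5 with the line block, 6 in DESeq2 with the block and 1 to 6 with a line left out. Only DUSP1 was called without WM983A, WM983B, WM278 or WM902B in the fit without a block, and 6 members (DUSP1, DUSP2, DUSP4, DUSP6, DUSP8 and DUSP10) without WM1617. With adjustment, the 0 members became 1 in DESeq2 and 3 in DESeq2 with the block. The 10 list genes called became 18 in DESeq2 with the block and 7 to 20 with a line left out. The 3 members with an exact permutation p of at most 0.05 became 1 to 3. That test was run on members and list genes only, so no share over all genes stands beside this count. The DUSP5 log2 fold change turned to -0.0551 with the replicate block and -0.0603 in DESeq2 with it. With the block and a line left out it was -0.5249 (WM983A), -0.4363 (WM983B) and -0.4756 (WM1617), without the block -0.2546 (WM1617), and at most 0.95 (WM278), and its difference in mean log2 level from -0.62 to 0.56. The DUSP14 log2 fold change was -0.001 with the block, -0.0213 with no filter and -0.0026 in DESeq2 with the block, -0.0364 with the block without WM1617, from -0.21 to 0.16 with a line left out, and its difference in mean log2 level was -0.0005 with median-of-ratios scaling and from -0.21 to 0.13. Without WM1617, DUSP10 was called in the fit without the block and not with it, and without WM983A, WM983B, WM278 or WM902B the block made calls beyond DUSP1. Depth limits DUSP2 and DUSP8, which are near 3 counts in some libraries.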
